A study of Mus musculus with 9 samples.

Results

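S100 proteins are small calcium-binding proteins with EF-hand motifs that change shape when calcium rises and then bind partner proteins, and annexins are a separate family that binds membrane phospholipids in the presence of calcium. Several S100 proteins dock onto the amino-terminal tail of an annexin, as S100A10 does with annexin A2 and S100A11 with annexin A1, and such complexes link membranes to the cytoskeleton. Both families are abundant in stratified epithelia, and S100A4 is known as a product of fibroblasts and of some macrophages.

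The group described here holds 8 named genes, S100a4, S100a6, S100a8, S100a9, S100a10, S100a11, Anxa1 and Anxa2, and the members are the probe sets that the platform annotation gives to one of these genes alone. The rule found 10 of 12422 probe sets, and they belong to 7 of the 8 genes. S100a11 had 0 such probe sets, because the 1 probe set that carries its symbol is also assigned to other genes, so S100a11 was not analysed here. Several probe sets belong to Anxa1 and a pair to S100a10, so these share a target and are not independent of each other. The group was proposed because S100a4 was low in cornea against both other tissues, so the members were chosen by measured S100a4 levels in these tissues, and that pattern is given below as a description with no test.

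RNA was measured on 9 Affymetrix arrays, with 3 of adult cornea, 2 of cornea at postnatal day 10 (P10), 2 of adult lens and 2 of adult flexor digitorum longus tendon. Adult mice were 7 weeks old, and P10 is an age of 10 days. No genotype, strain or treatment is given in the labels, and the groups differ in tissue or age. Corneas were cut free of the limbus and scraped, which left part of the epithelium in place, and tissue was pooled for the lens and tendon RNA. Replicates were independent RNA preparations, and no label ties them to separate animals, so p-values cover preparation-level spread. Both sets of cornea arrays had already been used in an earlier study, and any batch that this implies cannot be told apart from tissue where cornea is set against lens or tendon.

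All levels are deposited expression indices in arbitrary units, and levels of different probe sets are not set against each other. Array medians ran from 67.6 to 88.0, and having 2 or 3 arrays in a group limits the precision. Adult cornea replicate 1 stood apart in a measure of RNA quality, with a 3'/5' ratio of 2.25 for the Gapdh control, against 0.831 to 1.04 on the other arrays. Tissue identity was checked by summing the indices of marker genes over each list. Of 17 corneal epithelium markers, the sum was 23992 to 26720 in adult cornea, 29295 to 30687 in P10 cornea, 3025 to 3746 in lens and 849 to 1604 in tendon. Over 7 lens markers the sum was 4715 to 8573 on the cornea arrays, 33863 to 35264 in lens and 531 to 578 in tendon. The cornea arrays thus also carried lens marker signal, mostly from the crystallin genes Cryaa, Crybb2, Cryba1 and Crygs. Mip, Bfsp1 and Cryab averaged 33.2, 68.9 and 232 in adult cornea and 60.2, 139 and 217 in P10 cornea, against 1859, 3516 and 3105 in lens. Over 10 skeletal muscle markers the sum was 280 to 601 on the cornea and lens arrays and 39740 to 46769 in tendon, where 4 tendon markers summed to 11218 to 12562. The tendon arrays thus carried muscle signal as well. In such bulk samples fewer cells of a type and less RNA per cell cannot be told apart.

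**Figure D1:**
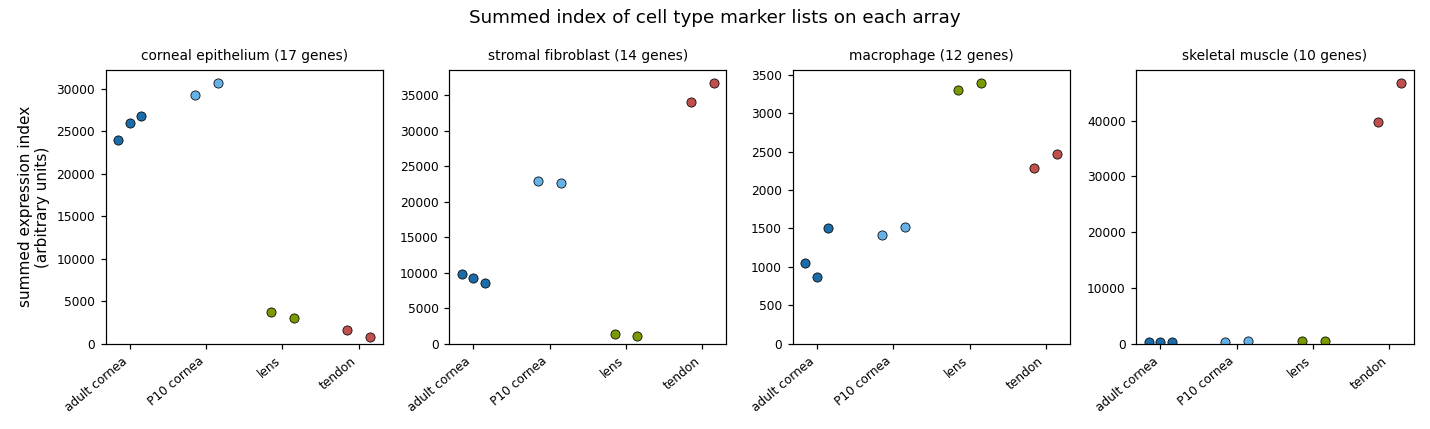
Summed expression index (arbitrary units, linear axes from 0) of marker lists for corneal epithelium, stromal fibroblasts, macrophages and skeletal muscle, with 1 point per array and values below 0 counted as 0. Epithelial markers are high on all 5 cornea arrays, fibroblast markers are highest in tendon and lowest in lens, and muscle markers are high on both tendon arrays.

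S100a4 encodes a protein, also called metastasin or fibroblast-specific protein, that binds the heavy chain of non-muscle myosin and affects cell movement. Its probe set 99051_at read 160, 196 and 162 in adult cornea, 172 and 173 in P10 cornea, 2066 and 1721 in lens, and 2814 and 3398 in tendon. The 5 cornea arrays lay in a narrow band, and neither the lens nor the tendon arrays came near it. As a ratio of mean indices, lens was 10.96-fold and tendon 17.97-fold above adult cornea, and 10.97-fold and 18.0-fold above P10 cornea. These are the values for which the group was chosen. Between the ages the level was 173 ± 19.7 (SD, n = 3) in adult cornea and 173 ± 0.41 (SD, n = 2) in P10 cornea. The log2 difference of adult minus P10 cornea was -0.00 ± 0.18 (SE; limma adjusted p = 0.999), with a 95% interval of -0.41 to 0.41. As the median of all tested probe sets was -0.13 in this comparison, S100a4 lay 0.12 above it.

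Tendon had more S100a4 than lens. Lens averaged 1893 ± 244 and tendon 3106 ± 413 (SD, n = 2 each), which is a log2 difference of -0.71 ± 0.20 for lens minus tendon (limma adjusted p = 0.0148), and the arrays did not overlap. The call was lost without lens replicate 2 (limma adjusted p = 0.0742), without tendon replicate 2 (0.132) and with quantile normalization (log2 -0.35, adjusted p = 0.138).

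Fibroblasts and macrophages are known to make S100A4, and their marker sums are given beside it. Over 14 stromal fibroblast markers the summed index was 8606 to 9909 in adult cornea and 22681 to 22886 in P10 cornea, 1078 to 1365 in lens and 34080 to 36793 in tendon. The lens arrays had the lowest fibroblast sums. By gene, 10 of the 14 markers were higher and 2 lower in adult cornea than in lens, beside 27.2% and 24.0% of all tested probe sets. The 2 lower were Vim and Pdgfra, which averaged 173 and 307 in lens and 95.0 and 142 in adult cornea. Over 12 macrophage markers the sum was 865 to 1509 in adult cornea, 1413 to 1523 in P10 cornea, 3303 to 3393 in lens and 2287 to 2469 in tendon. Lens and tendon were above cornea in this sum. Of the 12 markers, 7 were above the array median on both lens arrays, 8 on both tendon arrays, and 5 on all arrays of either cornea group. The excess in lens rested on C1qa and C1qb, complement genes of macrophages, at 750 and 662 and at 1378 and 1571 in lens. Without them the sum over 10 markers, computed after the values were seen, was 774 to 1289 in adult cornea, 1270 to 1315 in P10 cornea, 1161 to 1175 in lens and 2146 to 2294 in tendon, so lens lay within the adult cornea range and tendon above both corneas. By gene, 4 of 9 tested markers were lower in adult cornea than in lens, among them C1qc and Msr1, and 2 were higher. The shares of all tested probe sets were 24.0% lower and 27.2% higher. Lyz2, a lysozyme gene of macrophages, was below 0 on both lens arrays and at 5.73 to 16.8 in adult cornea. It read 10.4 and 14.7 in P10 cornea and 285 and 341 in tendon. The part of fibroblast, macrophage or muscle RNA in the S100a4 levels was not tested.

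Among tested probe sets with 1 symbol outside the group, those with the profile most like S100a4 over the 9 arrays belonged to Fxyd1, Pgam2, Spsb1, Mdfi and Pla2g5, with Pearson's r of 0.985 to 0.993 on the log2 scale. The arrays fall into tissues, so these coefficients restate low cornea levels beside high lens and tendon levels. Fxyd1, which encodes phospholemman, a regulator of the sodium pump, averaged 57.5 in adult cornea, 56.5 in P10 cornea, 941 in lens and 1418 in tendon. Pgam2, a phosphoglycerate mutase of muscle, averaged 1.63 in adult cornea and 3.25 in P10 cornea, against 1001 in lens and 955 in tendon.

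On chromosome 3 only S100a5 lies between S100a4 and S100a6 in the order of protein-coding genes. S100a6 was higher in cornea than in lens and tendon, where S100a4, by the values for which the group was chosen, was lower, while both were lower in lens than in tendon. Their upstream sequences are shown to set the pair side by side, as the 250 bases before the annotated start from RefSeq (GRCm38.p6; 7 of the 8 genes had an entry). S100a4 is at chr3:90603520-90603769 and S100a6 at chr3:90612644-90612893, both on the + strand. Capitals mark the letters TATAAA, searched on both strands.
S100a4: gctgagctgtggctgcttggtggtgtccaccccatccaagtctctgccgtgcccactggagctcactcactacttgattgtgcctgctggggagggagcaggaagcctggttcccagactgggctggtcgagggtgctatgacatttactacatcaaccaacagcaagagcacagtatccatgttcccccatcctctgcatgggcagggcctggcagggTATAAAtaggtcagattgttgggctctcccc
S100a6: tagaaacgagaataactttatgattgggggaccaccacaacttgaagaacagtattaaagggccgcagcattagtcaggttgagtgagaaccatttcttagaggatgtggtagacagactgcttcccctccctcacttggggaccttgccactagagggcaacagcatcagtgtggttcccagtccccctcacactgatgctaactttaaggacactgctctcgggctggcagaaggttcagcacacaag
The S100a4 window holds TATAAA from 31 to 26 bases before the start, and the S100a6 window does not hold these letters. TATAAA occurs in 12.4% of 32851 windows of this length, and any link to the levels was not tested.

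**Figure D2:**
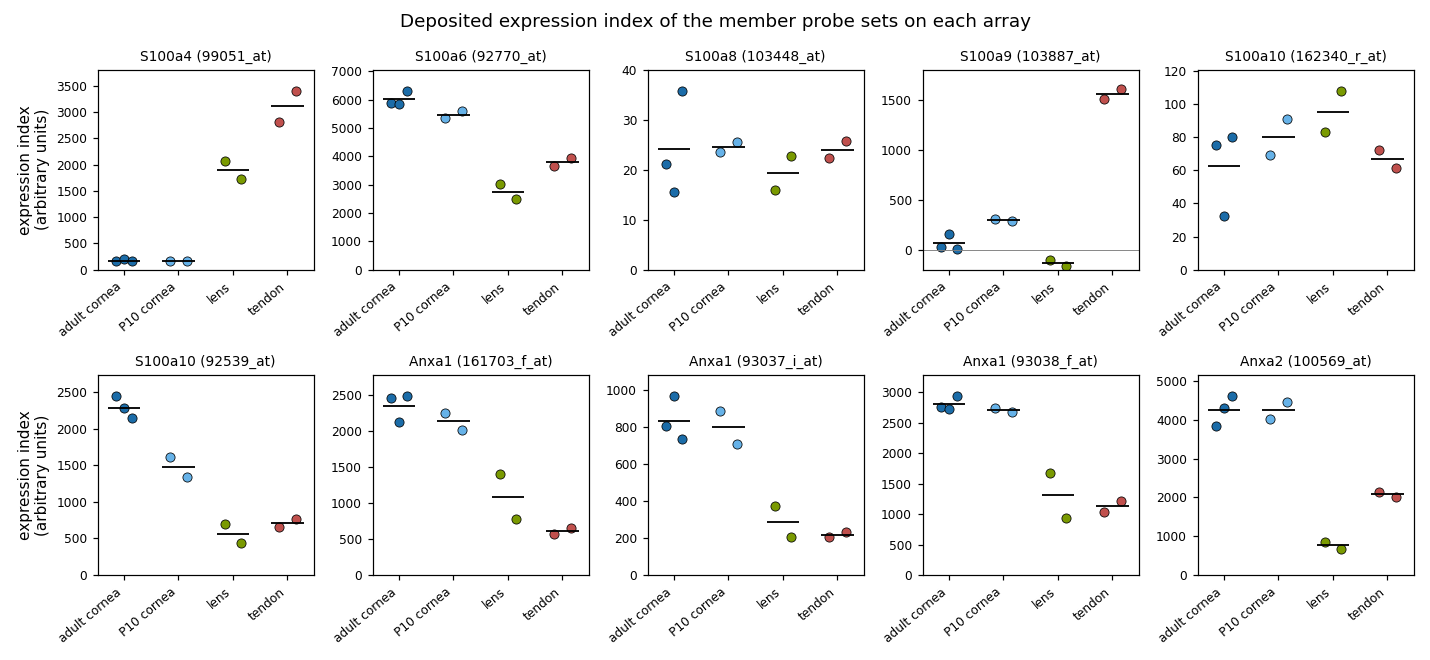
Deposited expression index (arbitrary units, linear axes) of the 10 member probe sets, with 1 point per array and a bar at the group mean (adult cornea n = 3, other groups n = 2). S100a4 is low on all cornea arrays, S100a6, Anxa1, Anxa2 and the 92539_at probe set of S100a10 are high there, S100a9 is highest in tendon, and S100a8 stays below 40 on every array.

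S100a6, which encodes calcyclin, a partner of annexins and of the calcyclin-binding protein, was high in every tissue and highest in cornea. Its index was 5890, 5839 and 6305 in adult cornea, 5360 and 5593 in P10 cornea, 3009 and 2498 in lens, and 3662 and 3933 in tendon. The groups were ordered adult cornea, P10 cornea, tendon and lens without overlap, although the 2 ages did not differ beyond their spread (log2 0.13 ± 0.13 SE; limma adjusted p = 0.714). Adult cornea was 2.18-fold above lens (log2 1.13 ± 0.13 SE; limma adjusted p = 5.05e-05) and 1.58-fold above tendon (log2 0.66 ± 0.13 SE; limma adjusted p = 0.00250). P10 cornea was 1.99-fold above lens (limma adjusted p = 0.000255) and 1.44-fold above tendon (limma adjusted p = 0.0194). The last of these calls was lost when either P10 cornea array or either tendon array was left out (limma adjusted p = 0.0753 to 0.144), and at 0.0506 with no filter on low values. Lens fell below tendon by 0.47 on the log2 scale (limma adjusted p = 0.0185), a call lost without lens replicate 2 or either tendon array (limma adjusted p = 0.0614 to 0.121), in a fit of only lens and tendon (0.0981) and with quantile normalization (log2 -0.11, adjusted p = 0.387).

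S100a10 encodes p11, an S100 protein that no longer binds calcium and stays bound to annexin A2, with which it anchors membrane proteins and plasminogen at the cell surface. The probe set 92539_at read 2442, 2280 and 2140 in adult cornea, 1616 and 1341 in P10 cornea, 693 and 437 in lens, and 654 and 770 in tendon. Both corneas were above both other tissues on every array, while lens and tendon overlapped. Adult cornea was 4.06-fold above lens (log2 2.02 ± 0.21 SE; limma adjusted p = 3.06e-05) and 3.17-fold above tendon (log2 1.66 ± 0.21 SE; limma adjusted p = 0.000167). P10 cornea was 2.63-fold above lens (limma adjusted p = 0.000771) and 2.05-fold above tendon (limma adjusted p = 0.00852). The call against tendon was lost without P10 cornea replicate 1 (limma adjusted p = 0.0821) or tendon replicate 1 (0.0820).

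Between the ages, S100a10 (92539_at) separated the arrays without passing the test. All 3 adult arrays were above both P10 arrays, at 2288 ± 151 (SD, n = 3) in adult cornea and 1479 ± 195 (SD, n = 2) in P10 cornea. The log2 difference was 0.63 ± 0.21 (SE) and did not pass the test (limma adjusted p = 0.155), with an interval of 0.16 to 1.10. It passed with quantile normalization (log2 0.67, limma adjusted p = 0.0406) and with trimmed mean scaling (0.77, adjusted p = 0.0313). The other S100a10 probe set, 162340_r_at, behaved differently, at 75.0, 32.2 and 80.0 in adult cornea, 68.9 and 90.8 in P10 cornea, 83.0 and 108 in lens, and 72.3 and 61.4 in tendon. It stayed near the array medians and passed in none of the 6 comparisons (limma adjusted p = 0.139 to 0.754). The S100a10 results thus belong to the first probe set.

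Annexin A2 binds membranes and actin and, with p11, forms a heterotetramer. Anxa2 (100569_at) read 3842, 4310 and 4608 in adult cornea, 4024 and 4475 in P10 cornea, 858 and 667 in lens, and 2130 and 2024 in tendon. The ages overlapped, tendon lay below both corneas, and lens lay below tendon. Adult cornea was 5.51-fold above lens (log2 2.46 ± 0.16 SE; limma adjusted p = 1.38e-06) and 2.04-fold above tendon (log2 1.03 ± 0.16 SE; limma adjusted p = 0.000617). P10 cornea had the same folds of 5.51 and 2.04 (limma adjusted p = 3.11e-06 and 0.00170). Lens fell below tendon by 1.44 ± 0.17 (SE) on the log2 scale (limma adjusted p = 7.35e-05). Between the ages the log2 difference was -0.00 ± 0.16 (SE; limma adjusted p = 1), with an interval of -0.35 to 0.35. Lens was below tendon for Anxa2, while for its partner S100a10 (92539_at) lens and tendon did not differ beyond their spread (log2 -0.36 ± 0.23 SE; limma adjusted p = 0.229).

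Annexin A1 is a glucocorticoid-regulated protein that dampens inflammation through formyl peptide receptors. Anxa1 has 3 probe sets, which are not independent. The probe set 93038_f_at read 2752, 2728 and 2934 in adult cornea, 2738 and 2685 in P10 cornea, 1675 and 937 in lens, and 1040 and 1211 in tendon. The corneas did not overlap with lens or tendon, and the 2 lens arrays lay on either side of the tendon arrays. Adult cornea was 2.22-fold above lens (limma adjusted p = 0.00161) and 2.48-fold above tendon (limma adjusted p = 0.00110). Through 161703_f_at the folds were 2.23 and 3.79 and through 93037_i_at 2.88 and 3.64 (limma adjusted p = 0.000125 to 0.00221 over these 4 values). P10 cornea was likewise higher by all 3 probe sets, 2.03-fold to 2.76-fold against lens and 2.40-fold to 3.48-fold against tendon (limma adjusted p = 0.000629 to 0.00796), and the 161703_f_at call against lens was lost without P10 cornea replicate 1 (0.0559).

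Lens replicate 1 was above replicate 2 for each Anxa1 probe set, at 1407 and 774 for 161703_f_at and at 372 and 206 for 93037_i_at. In lens minus tendon 161703_f_at was higher (log2 0.76 ± 0.26 SE; limma adjusted p = 0.0311), but not in a fit of only these groups (0.0914), and not without lens replicate 1 (0.189), tendon replicate 1 (0.158) or tendon replicate 2 (0.0735). The other probe sets were not called, with limma adjusted p = 0.345 for 93037_i_at and 0.626 for 93038_f_at. Without lens replicate 2 both passed (limma adjusted p = 0.0455 and 0.0256), and without lens replicate 1 both log2 differences were below 0. Between the ages the 3 log2 differences were 0.05 to 0.14 and did not pass (limma adjusted p = 0.870 to 0.970).

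Epithelial markers were higher in cornea than in lens and tendon, as were Anxa1, Anxa2, S100a6 and S100a10 (92539_at). Their summed index was at least 23992 on each cornea array and at most 3746 on each lens or tendon array. Between lens and tendon the epithelial sum was higher in lens, and Krt12 alone averaged 1680 in lens and 329 in tendon. By gene, 5 of 15 tested markers were higher and 3 lower in lens than in tendon, beside 22.6% and 26.4% of all tested probe sets. On the cornea arrays, 14 of the 17 markers were above the array median throughout. Their part in the higher cornea levels was not tested. Of 15 epithelial markers tested, 0 were higher and 2 lower in adult than in P10 cornea, beside 0.699% and 3.88% of all tested probe sets.

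As both annexins were high in cornea, their upstream windows are shown side by side. Anxa1 is at chr19:20390672-20390921 on the - strand and Anxa2 at chr9:69453433-69453682 on the + strand (RefSeq, GRCm38.p6). Capitals mark TATAAA, searched on both strands, and TGANTCA, the AP-1 motif, which reads the same on both strands.
Anxa1: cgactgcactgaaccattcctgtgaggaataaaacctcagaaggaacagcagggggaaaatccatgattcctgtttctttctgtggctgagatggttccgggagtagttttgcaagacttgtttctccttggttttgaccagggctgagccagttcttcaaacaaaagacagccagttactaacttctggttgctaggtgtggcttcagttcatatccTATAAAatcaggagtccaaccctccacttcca
Anxa2: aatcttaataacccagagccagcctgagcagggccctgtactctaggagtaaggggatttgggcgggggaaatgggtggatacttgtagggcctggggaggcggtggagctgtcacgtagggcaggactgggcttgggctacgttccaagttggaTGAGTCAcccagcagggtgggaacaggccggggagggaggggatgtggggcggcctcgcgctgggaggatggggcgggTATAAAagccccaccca
Both windows hold TATAAA, from 32 to 27 bases before the Anxa1 start and from 17 to 12 before the Anxa2 start, and only the Anxa2 window holds TGANTCA, from 95 to 89 bases before the start. TGANTCA occurs in 6.75% of the 32851 windows. Outside this pair, TATAAA is also in the S100a4 and S100a8 windows, and TGANTCA in the S100a11 window. Any link of these letters to the levels was not tested.

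S100a8 and S100a9 encode the subunits of calprotectin, a metal-binding heterodimer of neutrophils and of stressed epithelia. S100a8 (103448_at) read 21.1, 15.6 and 35.8 in adult cornea, 23.6 and 25.6 in P10 cornea, 15.98 and 22.8 in lens, and 22.4 and 25.7 in tendon. It was below the median on all 9 arrays, did not pass the filter on low values and was not tested.

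S100a9 (103887_at) passed the filter, and its level differed widely between tissues. Its index was 21.7, 160 and 5.56 in adult cornea, 312 and 288 in P10 cornea, -108 and -169 in lens, and 1519 and 1616 in tendon. The groups did not overlap, and the lens values below 0 were set to 0 before testing, so no fold is given against lens. Tendon was far above cornea, with a log2 difference of -4.92 ± 0.66 (SE) for adult cornea minus tendon (limma adjusted p = 0.000260). For P10 cornea minus tendon it was -2.33 ± 0.73 (SE; limma adjusted p = 0.0390). That call was lost without either array of P10 cornea, lens or tendon (limma adjusted p = 0.0692 to 0.149), with a pseudocount of 1 (0.164) and with quantile normalization (0.0630). P10 cornea was above lens (limma adjusted p = 0.000871) and lens below tendon (limma adjusted p = 3.95e-05), and adult cornea against lens did not pass (limma adjusted p = 0.0534). It did pass with a pseudocount of 1 (0.00450), with a stricter filter (0.0479), with trimmed mean scaling (0.0466) and without adult cornea replicate 2 (0.0233) or 3 (0.00551).

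With age S100a9 lay on the lower side in the adult, at 62.5 ± 85.0 (SD, n = 3) in adult cornea and 300 ± 16.8 (SD, n = 2) in P10 cornea. The log2 difference of -2.59 ± 0.66 (SE) did not pass (limma adjusted p = 0.0598). It passed with a pseudocount of 64 (log2 -1.72, limma adjusted p = 0.0282) and without adult cornea replicate 2, the array at 160 (log2 -3.47, adjusted p = 0.000220).

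Neutrophil markers were summed beside S100a9. Over 13 of them the summed index was 1564 to 2272 in adult cornea, 1821 to 1845 in P10 cornea, 1901 to 1997 in lens and 1979 to 2310 in tendon, and the adult cornea range overlapped with each of the others. Of 10 tested, 2 were higher and 2 lower in adult cornea than in tendon, beside 16.1% and 18.9% of all tested probe sets. Between the ages 1 was higher and 0 lower in adult than in P10 cornea, beside 0.699% and 3.88% of all. Against lens 1 was higher and 2 lower in adult cornea, beside 27.2% and 24.0% of all. In lens 4 were higher and 2 lower than in tendon, beside 22.6% and 26.4% of all. Ngp, a neutrophil granule gene, read 328, 255 and 448 in adult cornea, 339 and 274 in P10 cornea, 27.0 and 51.3 in lens, and 572 and 273 in tendon. Ngp was the 1 higher in adult cornea than in lens, while Mpo and Lcn2 were lower (log2 -0.68 and -1.07, limma adjusted p = 0.00872 and 0.0132). Elane, the neutrophil elastase gene, was at 46.6 to 79.7 over the 9 arrays and did not pass the filter. The part of neutrophil RNA in the S100a9 levels was not tested.

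Counted over the tested member probe sets, of which 9 of 10 passed the filter, the cornea comparisons with lens and tendon leave out S100a4. Against lens, adult cornea was higher in 6 of 8 and lower in 0, where 51.2% of all 8154 tested probe sets were called, 27.2% higher and 24.0% lower. Against tendon it was higher in 6 and lower in 1 of 8, beside 35.0% of all probe sets called, 16.1% higher and 18.9% lower. P10 cornea was higher than lens in 7 of 8 and lower in 0, beside 51.0% of all called, 31.6% higher and 19.4% lower. Against tendon it was higher in 6 and lower in 1 of 8, beside 26.7% of all called, 15.7% higher and 11% lower. In each of these 4 counts, 3 of the higher probe sets are Anxa1's. Lens was higher than tendon in 1 and lower in 4 of 9, beside 49.0% of all called, 22.6% higher and 26.4% lower. S100a9, whose lens values were set to 0 before testing, is among the 7 higher in P10 cornea than in lens. It is also among the 4 lower in lens than in tendon. Between adult and P10 cornea 0 of 9 passed in limma's test, with 2 at an unadjusted p under 0.05, while 4.57% of all probe sets were called, 0.699% higher and 3.88% lower. By the methods' t-test criteria 1 passed, S100a9, which was lower in the adult. The comparisons share arrays and are therefore not independent.

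**Figure D3:**
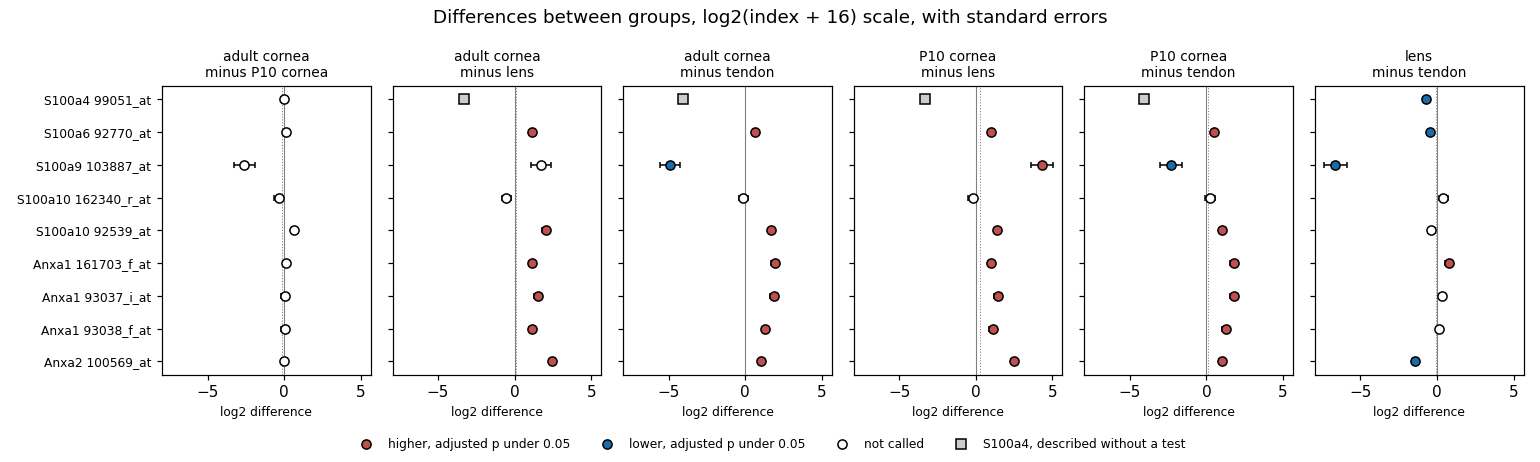
Log2 differences (log2(index + 16) scale) of the 9 tested member probe sets in 6 comparisons, with bars for the standard error from limma and a dotted line at the median of all tested probe sets. Red and blue mark calls at an adjusted p under 0.05, and grey squares mark S100a4 against lens and tendon, which has no test. S100a6, Anxa1, Anxa2 and S100a10 (92539_at) lie to the right in the 4 comparisons of cornea with lens and tendon.

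The other S100 genes did not share one pattern. Of 7 tested, 2 were higher and 3 lower in adult cornea than in lens, beside 27.2% and 24.0% of all tested probe sets. The median log2 difference was 0.35 beside 0.08 for all tested probe sets. Against tendon 0 were higher and 3 lower (median -0.62, beside 0.01 for all), where the shares of all were 16.1% and 18.9%. Between the ages limma called 0 of the 7 and 0 had an unadjusted p under 0.05, beside 4.57% of all probe sets called. S100a13, a protein of non-classical secretion, was lower in cornea than in both other tissues, at 145, 107 and 129 in adult cornea, 176 and 148 in P10 cornea, 747 and 819 in lens, and 407 and 470 in tendon. Adult cornea was lower than lens (log2 -2.49 ± 0.19 SE; limma adjusted p = 4.49e-06) and lower than tendon (log2 -1.67 ± 0.19 SE; limma adjusted p = 9.18e-05). In lens minus tendon S100a13 was higher (log2 0.82 ± 0.21 SE; limma adjusted p = 0.00948), where S100a4 was lower. S100a1, an S100 protein of striated muscle, was higher in adult cornea than in lens (limma adjusted p = 0.00109). In lens it read 14.95 and -1.85, the latter set to 0 before testing. It was lower in adult cornea than in tendon (log2 -1.65 ± 0.31 SE; limma adjusted p = 0.00233), where muscle markers were also high. S100g, an intestinal calcium buffer also called calbindin-D9k, was lower in adult cornea than in lens (log2 -1.53 ± 0.21 SE; limma adjusted p = 0.000204).

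Of 6 other annexins tested, 3 were higher and 2 lower in adult cornea than in lens (median 0.49), beside 27.2% and 24.0% of all tested probe sets. Against tendon 1 was higher and 3 lower (median -0.58), beside 16.1% and 18.9% of all. Anxa8, an annexin of stratified epithelia, was like Anxa1 and Anxa2 higher in adult cornea than in both other tissues. It read 1743, 2113 and 1514 in adult cornea, 1955 and 1674 in P10 cornea, 83.2 and 74.1 in lens, and 683 and 630 in tendon. Adult cornea was 18.9-fold above lens (log2 4.24 ± 0.19 SE; limma adjusted p = 2.68e-07) and 2.66-fold above tendon (log2 1.41 ± 0.19 SE; limma adjusted p = 0.000255). Anxa3 ran the other way, at 61.8, 57.8 and 35.6 in adult cornea, 93.1 and 79.0 in P10 cornea, 479 and 301 in lens, and 87.6 and 115 in tendon (adult cornea minus lens, log2 -2.57 ± 0.26 SE; limma adjusted p = 2.39e-05). Anxa5, which binds phosphatidylserine, was higher in adult cornea than in lens (1.83-fold; limma adjusted p = 0.00407) and lower than in tendon (log2 -0.71 ± 0.20 SE; limma adjusted p = 0.0172). Between the ages limma called 0 of the 6, and 1 had an unadjusted p under 0.05, while 4.57% of all tested probe sets were called.

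Among partners and receptors 7 were tested, of which 4 were higher and 1 lower in adult cornea than in lens (median 1.52). Against tendon 2 were higher and 1 lower (median 0.28). The shares of all tested probe sets were 27.2% and 24.0% against lens, and 16.1% and 18.9% against tendon. Ahnak, a giant scaffold protein that binds the annexin A2 and p11 complex, read 2795, 2358 and 2340 in adult cornea, 2023 and 2039 in P10 cornea, 528 and 243 in lens, and 2458 and 2572 in tendon. It was 6.67-fold higher in adult cornea than in lens (log2 2.74 ± 0.26 SE; limma adjusted p = 1.78e-05), as its 2 partners were, but was not among the 3 called against tendon. Myh9 encodes the non-muscle myosin heavy chain that S100A4 binds. It read 1175, 1216 and 800 in adult cornea, 983 and 903 in P10 cornea, 110 and 65.5 in lens, and 476 and 559 in tendon, so it was high in cornea where S100a4 was low. Adult cornea was 10.5-fold above lens (log2 3.39 ± 0.25 SE; limma adjusted p = 3.06e-06) and 2.00-fold above tendon (log2 1.00 ± 0.25 SE; limma adjusted p = 0.0109).

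Receptors differed between tissues as well. Plaur, the urokinase receptor, read 70.5, 95.5 and 83.6 in adult cornea, 76.8 and 97.2 in P10 cornea, 949 and 691 in lens, and 60.4 and 70.5 in tendon (adult cornea minus lens, log2 -3.07 ± 0.21 SE; limma adjusted p = 2.12e-06). Ager, the receptor for advanced glycation end products that also binds S100 proteins, was at 129 to 176 in adult cornea and 156 to 177 in P10 cornea, below 0 on both lens arrays, and at 216 and 232 in tendon. Fpr2, a receptor for annexin A1, did not pass the filter on low values and read 1.77 to 19.2 over the 9 arrays. Between the ages limma called 0 of the 7 partners and receptors, and 1 had an unadjusted p under 0.05, while 4.57% of all tested probe sets were called.

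**Figure D4:**
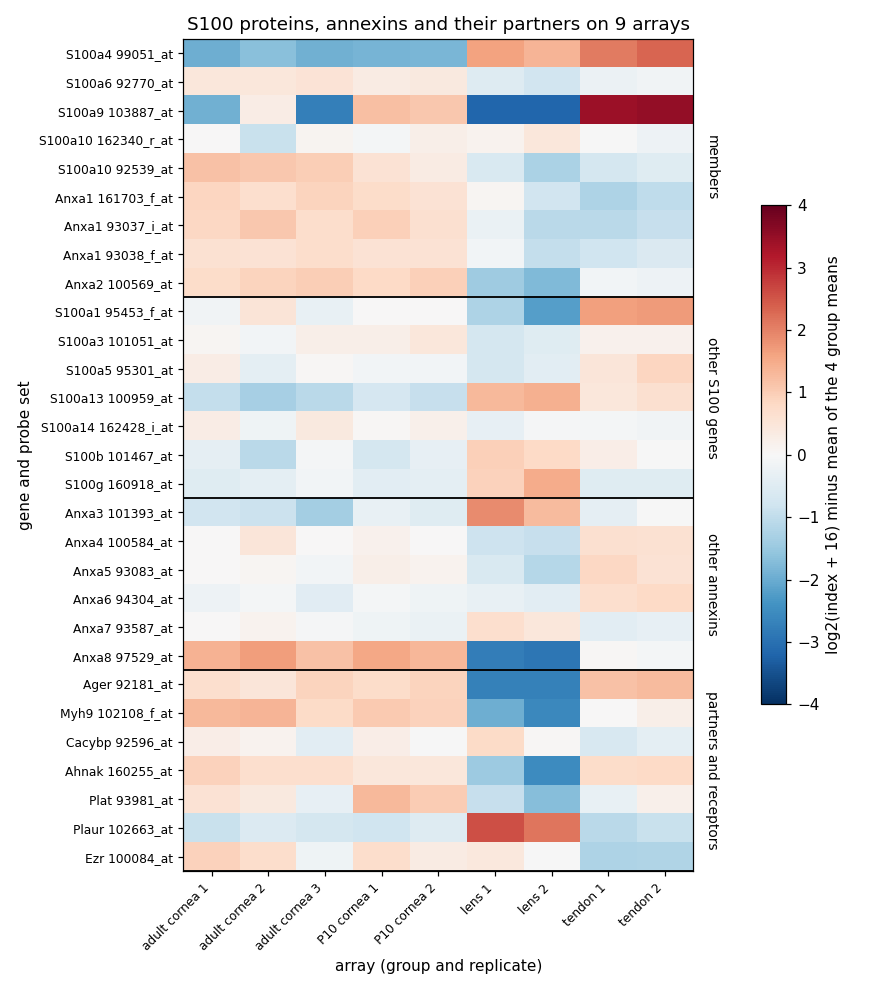
Heat map of log2(index + 16) minus the mean of the 4 group means (colour scale from -4 to 4) on 9 arrays, for the tested member probe sets, other S100 genes, other annexins, and partners and receptors. S100a4 and S100a13 are low on all cornea arrays, and Anxa1, Anxa2, Anxa8, S100a10 (92539_at) and Myh9 are high there.

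A pair of related gene groups serves as background. Of 10 other EF-hand genes tested, 3 were higher and 2 lower in adult cornea than in lens, and 3 and 2 against tendon. Among the 3 higher than in tendon is Tnnc1, a troponin gene of slow and cardiac muscle, whose tendon values of -1336 and -870 were set to 0 before testing, on arrays that carried muscle signal. The epidermal differentiation complex holds barrier genes beside the S100 genes on chromosome 3. Of its 3 tested genes limma called 0 in adult cornea minus lens, where 1 had an unadjusted p under 0.05, and 1 was lower than in tendon. Between the ages 1 EF-hand gene was lower in the adult, beside 3.88% of all tested probe sets. For the 3 complex genes limma called 0 and 0 had an unadjusted p under 0.05, beside 4.57% of all called. Among the marker lists, 13 of 15 epithelial, 10 of 14 fibroblast, 1 of 4 tendon, 1 of 10 muscle, 2 of 9 macrophage and 0 of 7 lens genes were higher in adult cornea than in lens, and 2 fibroblast, 1 muscle, 4 macrophage and 7 lens genes were lower. Against tendon 14 epithelial and 5 lens genes were higher in adult cornea, and 8 fibroblast, 4 tendon, 10 muscle, 3 macrophage and 1 lens genes were lower.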

How the data were processed

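Biotin-labelled RNA of 9 samples was hybridised to Affymetrix arrays. The authors deposited 1 table of intensity values, an expression index on a linear scale. Microarray Suite 5.0 and dChip, a program that fits a model-based index, are both named in the design text, and MAS5 in the submitters' processing notes. Neither source says which of them wrote the table, and the genome build is not given.

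Values below 0 were set to 0, 16 was added and log2 was taken, so folds are on the log2(index + 16) scale and understate differences of low genes. Only probe sets at or above the array median on 2 or more of the 9 arrays entered the test, which left 8154 of 12422 without the 66 controls. Of the 12422, 10833 carry 1 symbol, 396 several and 1193 none, and symbols were updated through Entrez identifiers. Group means of all 9 arrays were fitted with limma 3.58.1 in R 4.3.3 (trended moderated variances). Two-sided p-values were adjusted by Benjamini-Hochberg over all tested probe sets in each of 6 comparisons, with a threshold of 0.05. The script was tested on simulated data.

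The members and the gene lists were chosen with earlier results of these data known. Lists cover other S100 genes, other annexins, partners and receptors, other EF-hand genes, the epidermal differentiation complex, and markers of neutrophils, macrophages, corneal epithelium, stromal fibroblasts, lens, tendon and skeletal muscle. For a list gene with several probe sets the one of highest mean was taken. All member probe sets are named. From the lists the rule took up to 3 called genes a comparison with the smallest adjusted p, of which some are described, and for S100a4 and S100a8 the 5 probe sets of highest Pearson's r, not given for S100a8 because it did not pass the filter. S100a1, S100a13, S100g, Anxa5, Ahnak, Fpr2, Ngp, Elane, C1qa, C1qb, C1qc, Msr1, Lyz2, Vim, Pdgfra and Tnnc1 were singled out after their values were seen, whether or not the rule takes them. So were Mpo, Lcn2 and the 7 lens markers. Alternatives were pseudocounts of 1 and 64, other filters, quantile normalization, trimmed mean scaling, a fit limited to the groups being compared, a replicate block, the methods' t-test, leaving out each array and, chosen after seeing the data, leaving out probe sets with a value below -100. The last of these leaves out S100a9 itself, so it is no check on the S100a9 results.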

Additional observations from a re-analysis of the deposited data

How the results depend on the processing

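Of 966 refits of a single member, 905 stayed the same, 28 lost and 13 gained a call, and 14 changed sign. Same means that direction and side of the threshold held. For S100a4 values without a test it means a move below the larger group SD on the log2 scale, and 6 such values moved more. In adult minus P10 cornea the members called went to 1 with a pseudocount of 64, quantile normalization, trimmed mean scaling or the methods' t-test criteria. In lens minus tendon they went to 3 with quantile normalization and with a fit limited to both groups. By the methods' t-test criteria they were 3 in P10 cornea minus lens, 3 in P10 cornea minus tendon and 2 in lens minus tendon, and after Benjamini-Hochberg 0 in these and in adult cornea minus lens, and 2 in adult cornea minus tendon.

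All probe sets called, in the order adult cornea minus P10, lens and tendon, P10 cornea minus lens and tendon, and lens minus tendon, were 141, 1253, 1018, 1036, 630 and 1217 by the methods' criteria, and 0, 86, 88, 3, 0 and 0 after Benjamini-Hochberg. A fit limited to both groups called 194 in adult minus P10 cornea and 3832 in P10 cornea minus tendon. Quantile normalization moved the share of calls that were higher in adult minus P10 cornea to 26.7%, against 15.3% as deposited. The cause of these changes was not tested.

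Leaving out 1 array gave, in the same order, 0 to 1, 6 to 7, 7 to 7, 6 to 7, 4 to 7 and 2 to 5 members called, and 84 to 426, 3099 to 4449, 1667 to 3210, 2777 to 4521, 1062 to 2603 and 2854 to 4383 probe sets. The lowest of these probe set counts came without P10 cornea replicate 2, lens replicate 2, tendon replicate 1, P10 cornea replicate 1, tendon replicate 1 and tendon replicate 1. Sign changes were all in differences that were not called. In adult minus P10 cornea Anxa2 was 0.0366 after quantile normalization, 0.138 after trimmed mean scaling and -0.0771 to 0.0758 with an array left out. S100a4 was 0.139, 0.124 and -0.0878 to 0.0430 there, and Anxa1 (93037_i_at) -0.0924 to 0.217 with an array left out. S100a10 (162340_r_at) ran from -0.32 to 0.18 in adult cornea minus tendon, and in lens minus tendon Anxa1 ran from -0.0653 to 0.739 (93037_i_at) and from -0.26 to 0.57 (93038_f_at).

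Deviations of same-numbered samples from their group means had correlations of -0.363 to 0.201, which gave no sign that the numbers pair samples. In a group of 2 arrays the deviations mirror each other, so this check cannot exclude pairing. With the replicate block the members called were 0, 7, 7, 7, 7 and 5 in the same order, S100a9 passed in adult cornea minus lens, and S100a4 was 0.0350 in adult minus P10 cornea.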
